A study of Danio rerio with 12 samples.

Results

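Thin filament genes and their sarcomere partners were examined in whole zebrafish larvae at 120 hpf, in 6 elmo1-/- samples and 6 elmo1+/+ samples, each pooled from 30 larvae. The elmo1-/- line carries a CRISPR/Cas9 frameshift insertion in exon 2 of elmo1, which encodes an adaptor of DOCK proteins in the activation of the small GTPase RAC1, and elmo1+/+ larvae carry no such insertion. Both genotypes share the Tg(fli1:EGFP) background, in which endothelial cells carry EGFP. The mutation was present in every cell, and whole larvae mix skeletal muscle with heart, gut and all other tissues. Titles and design text call the elmo1-/- samples homozygous knockouts, while their data columns carry the ending hz, whose meaning is not given. The labels do not say that samples came from separate clutches, so the p-values measure the spread between these samples, which may be technical.

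The genes were chosen by symbol: troponins, tropomyosins, muscle actins, nebulin, titin, telethonin (tcap), myosin binding protein C, myozenins, ldb3, leiomodins, tropomodulins, obscurins and myomesins. Of 67 matching Ensembl identifiers among 32520, 65 had at least 10 counts in 6 or more of the 12 samples, and 64 of these entered the test of 21830 genes. Just inside the limit, actc1a (ENSDARG00000042535) reached 10 counts in 6 samples, with 2.94 to 16.7 counts in elmo1-/- larvae and 4.45 to 15.4 in elmo1+/+ larvae, and it was the member not tested. Just outside, an LMOD2 copy (ENSDARG00000045634) had at most 3 counts and a TNNI1 copy (ENSDARG00000000474) at most 4 in any sample. The name pattern also takes in genes that are not parts of the thin filament: smooth muscle actin (acta2) and leiomodin (LMOD1), titin, Z-disc, thick filament and M-band genes, and the kinase gene TNNI3K, which is not a troponin subunit.

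In striated muscle, actin filaments carry tropomyosin, which runs along the filament, and troponin, a complex of a calcium sensor (troponin C), an inhibitor (troponin I) and a tropomyosin anchor (troponin T). Calcium binding to troponin C moves tropomyosin and lets myosin act on actin. Fast and slow fibres use different troponin genes, slow fibres and heart share some, and zebrafish have several copies of most of them. Names in capitals are those of orthologues and several copies can share one, so the identifier is given where needed, and reads of near-identical copies may have been divided between them by the quantification, which makes the value of a single copy uncertain.

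Libraries held 20784515 to 21808513 counts each. In the targeted gene elmo1 (ENSDARG00000098753), CPM averaged 107.6 ± 7.86 in elmo1-/- larvae and 129.0 ± 8.18 in elmo1+/+ larvae (SD over 6 samples), and the genotypes did not overlap, although the difference did not pass the test (adjusted p = 0.137 in edgeR). All fixed marker lists for tissues of the larva were detected, and none of their matched genes was at 0. Not every listed symbol had a match. For fast skeletal muscle and heart 3 of 4 were matched, and for erythrocytes, epidermis and exocrine pancreas 2 of 3. Summed markers of fast skeletal muscle reached 7449 to 8981 TPM in elmo1-/- larvae and 7450 to 8886 TPM in elmo1+/+ larvae, and heart markers 60.2 to 79.8 TPM against 58.3 to 77.5 TPM. Summed endothelial markers were the list without overlap, at 49.6 to 66.2 TPM in elmo1-/- larvae and 71.5 to 85.8 TPM in elmo1+/+ larvae. That list held 3 genes, of which 1 had an adjusted p under 0.05 in edgeR, and their median log2 fold change was -0.098. The part of these markers in the results was not tested. Among the 24 members of at least 100 TPM, elmo1-/- replicate 5 had the lowest CPM of the 12 samples in 8, among them TNNC2, actc1b and MYOM2, and the highest in a TNNT3 copy, while its median over all fast troponins was the highest of the 12. The highest CPM fell to elmo1-/- replicate 6 in 11 of these members and to elmo1+/+ replicate 3 in 5, among them TPM2 and tpm3.

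Members took 4.82% ± 0.21 of all TPM in elmo1-/- larvae and 4.74% ± 0.17 in elmo1+/+ larvae (SD, n = 6 each), and the genotypes overlapped. TPM values are scaled for transcript length and so compare genes, while CPM values, scaled with TMM factors, compare genotypes. The actin gene actc1b was highest at 25433 ± 1407 TPM in elmo1-/- larvae and 25279 ± 1004 TPM in elmo1+/+ larvae. Its name is that of a cardiac actin, which does not settle where it is used, and its use by tissue was not tested. Heart markers, with 3 of 4 listed symbols matched, summed to 60.2 to 79.8 TPM in elmo1-/- larvae and 58.3 to 77.5 TPM in elmo1+/+ larvae. Behind actc1b came genes of each fast troponin subunit: TNNT3 (ENSDARG00000068457), TNNC2 (ENSDARG00000070835) and TNNI2 (ENSDARG00000029069).

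**Figure D1:**
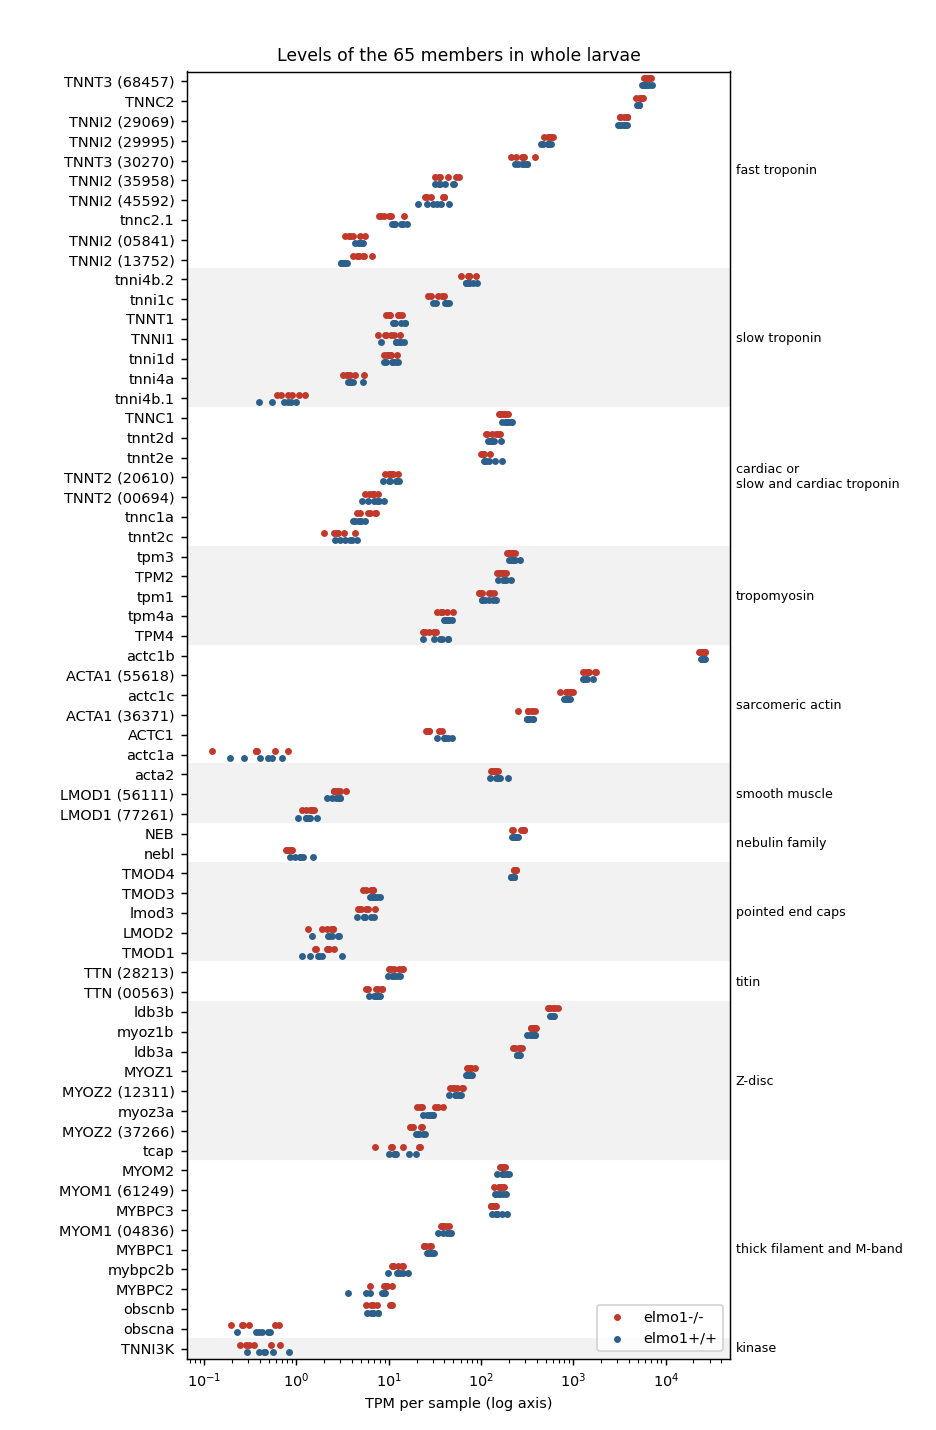
TPM of the 65 members in each sample on a log axis, grouped by role, with elmo1-/- samples (red) above elmo1+/+ samples (blue) in each row; digits in brackets are the last 5 of the Ensembl identifier. The sets of points of most genes lie over each other, and actc1b, at 25433 TPM in elmo1-/- larvae and 25279 TPM in elmo1+/+ larvae, lies farthest right.

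One member of 64 rose in elmo1-/- larvae and 0 fell (edgeR, quasi-likelihood fit, with p adjusted by Benjamini-Hochberg over all genes and a threshold of 0.05). Among all 21830 genes, 0.234% passed this test, 0.11% higher and 0.124% lower. DESeq2 called the same member and no other, against 0.444% of all genes, 0.202% higher and 0.243% lower. Without adjustment, 9 of 64 members (14.1%) had p under 0.05, 5 higher and 4 lower in elmo1-/- larvae, against 6.16% of all genes (3.06% higher, 3.1% lower). Leaving out elmo1-/- replicate 5, chosen after seeing the data, gave the most, 16 of 64 members (25.0%), against 8.81% of all genes. Leaving out any other library gave 7 to 12 members (10.9% to 18.8%), against 5.03% to 6.63% of all genes. The 9 were the TNNI2 copy that rose, ACTC1 ENSDARG00000057911, tnnc1a, TPM4, nebl, MYBPC2, TMOD4, NEB and tnnc2.1. Fold changes were small for most members. The median absolute log2 fold change was 0.098 over members and 0.071 over all genes, with median standard errors of 0.094 and 0.1. With the sign kept, the median log2 fold change was 0.020 over members and 0.0043 over all genes. With a library left out, the member median ran from 0.0019 (without elmo1+/+ replicate 6) to 0.048 (without elmo1+/+ replicate 3). It was 0.033 without elmo1-/- replicate 5. Of the members, 37 of 64 (57.8%) lay above 0 against 51.7% of all genes, and 48 of 64 stayed within 0.15 of 0, as did 16759 of 21830 genes. On log2(TPM + 1) all genes lay lower, with a median of -0.038, and 24 of 64 members (37.5%) lay above 0 against 32.9% of all genes. The 24 members of at least 100 TPM had standard errors of 0.051 to 0.11 on the log2 scale and fold changes no farther than 0.21 from 0. In these pooled larvae, a difference in the number of muscle cells and one in RNA per muscle cell cannot be told apart.

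**Figure D2:**
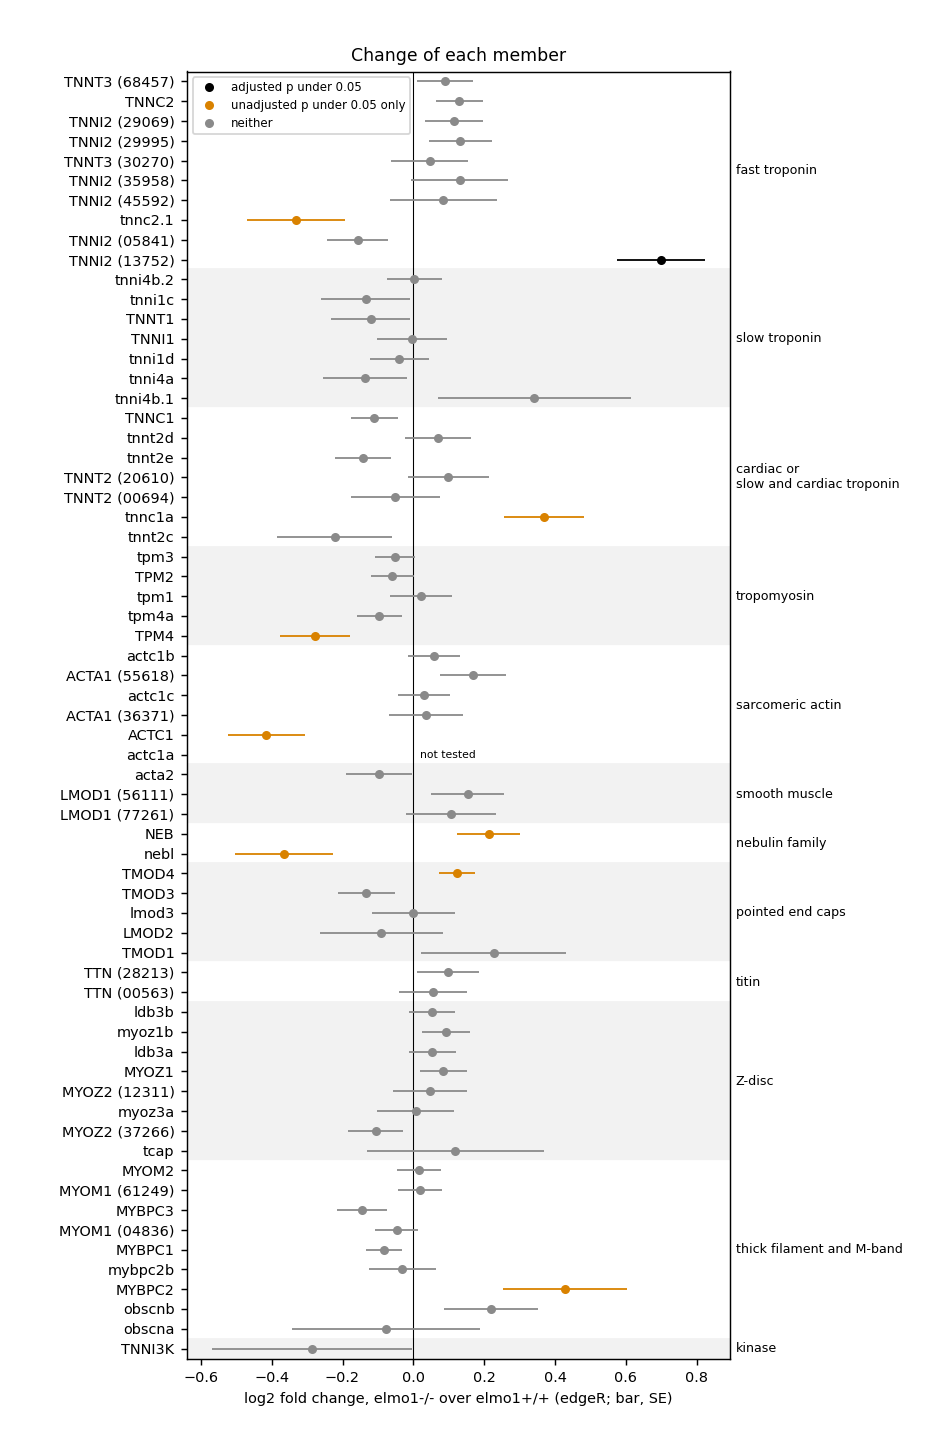
log2 fold change of elmo1-/- over elmo1+/+ with its standard error (bars) for the 64 tested members, grouped by role; black marks adjusted p under 0.05, orange unadjusted p under 0.05 only, grey neither. One point is black, the TNNI2 copy ENSDARG00000013752 at 0.70, and 8 are orange.

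The gene that rose was a minor copy of fast troponin I, the inhibitory subunit of fast fibres. TNNI2 ENSDARG00000013752 had 4.79, 6.13, 4.68, 7.62, 5.13 and 6.54 CPM in elmo1-/- replicates 1 to 6, against 3.54, 3.42, 3.53, 3.26, 3.99 and 3.72 CPM in elmo1+/+ replicates 1 to 6. Every elmo1-/- sample lay above every elmo1+/+ sample, and the elmo1-/- samples were more widely spread. This was 1 member without overlap, and 0.513% of all genes had none. On the log2 scale the copy was 0.70 ± 0.12 (SE) higher, or 62.4% (adjusted p = 0.0284 in edgeR). On TPM it averaged 5.10 ± 0.87 in elmo1-/- larvae and 3.21 ± 0.20 in elmo1+/+ larvae (SD, n = 6 each).

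The call of this copy lay close to the threshold in edgeR. In DESeq2 its adjusted p was 0.00038, and that fit was not repeated with libraries left out. With each library left out in turn, the log2 fold change stayed between 0.61 and 0.76, while the edgeR adjusted p ran from 0.0214 to 0.0858. It rose above 0.05 without elmo1-/- replicate 2 (0.0753), 4 (0.0533) or 6 (0.0808), and without elmo1+/+ replicate 1 (0.0813), 2 (0.0644), 3 (0.0725), 4 (0.0858) or 6 (0.0604).

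The copy that rose supplied little of the TNNI2 transcript. It made up 0.122% ± 0.018 of the summed TPM of the 6 TNNI2 identifiers in elmo1-/- larvae and 0.0806% ± 0.0066 in elmo1+/+ larvae, without overlap. The copy ENSDARG00000029069 made up 84.9% ± 1.4 in elmo1-/- larvae and 85.0% ± 1.2 in elmo1+/+ larvae, and ENSDARG00000029995 13.1% ± 1.3 against 13.0% ± 0.9, with overlap in both. Summed troponin I over all fibre types was 4333 ± 288 TPM in elmo1-/- larvae and 4145 ± 316 TPM in elmo1+/+ larvae, with overlap (SD, n = 6 each). The other 5 TNNI2 copies had log2 fold changes of -0.16 to 0.13 and did not pass the test.

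**Figure D3:**
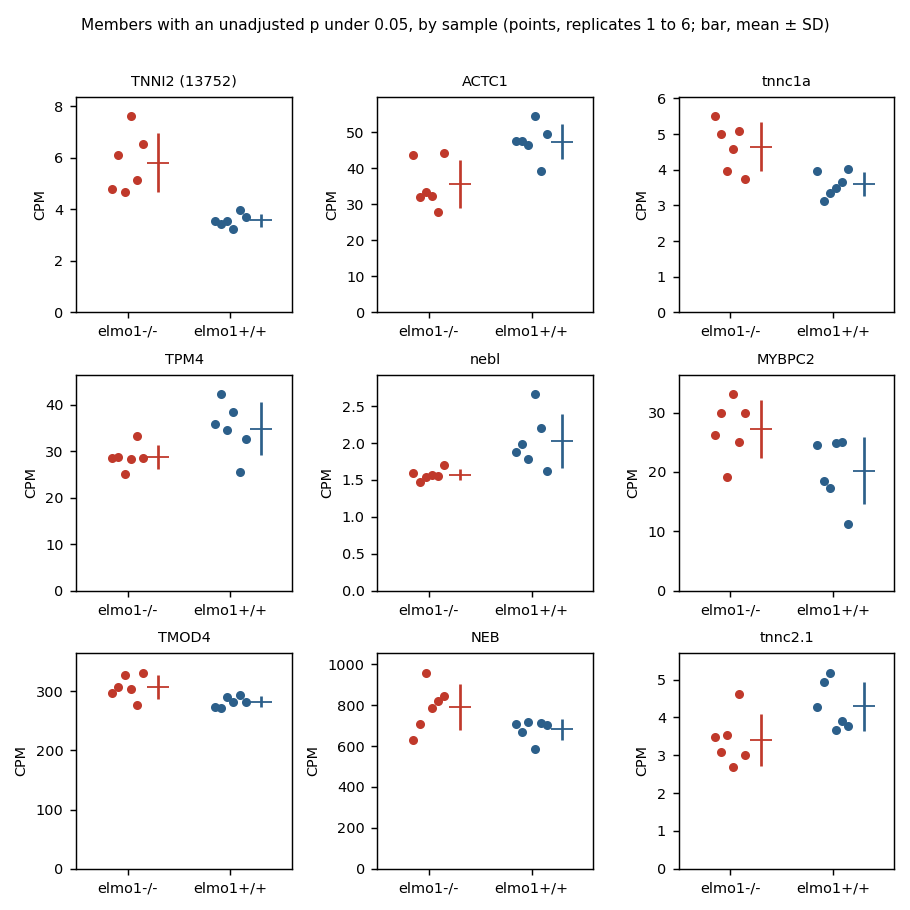
CPM (TMM-scaled, axis from 0) by sample for the 9 members with an unadjusted p under 0.05, ordered by p, with elmo1-/- left of elmo1+/+; points are replicates 1 to 6 and bars mean ± SD. The groups of TNNI2 ENSDARG00000013752 are apart, at 4.68 CPM or more in elmo1-/- larvae and 3.99 CPM or less in elmo1+/+ larvae, and those of the other 8 overlap.

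Among fast troponins, 8 of 10 had a log2 fold change above 0, against 51.7% of all genes, with a median of 0.10. There was 1 call, and 0.234% of all genes were called. On log2(TPM + 1), 7 of 10 lay above 0 with a median of 0.055, against 32.9% of all genes. Without elmo1-/- replicate 5, 7 of 10 lay above 0 on counts, with a median of 0.081. With a library left out, the median ran from 0.072 (without elmo1+/+ replicate 4) to 0.13 (without elmo1+/+ replicate 3). Fast troponin C, TNNC2, had 3815, 4659 and 4852 CPM as lowest, median and highest value in elmo1-/- larvae and 3840, 4227 and 4384 CPM in elmo1+/+ larvae. Here 5 of 6 elmo1-/- samples lay above all elmo1+/+ samples, and elmo1-/- replicate 5 lay below all of them. On the log2 scale the difference was 0.13 ± 0.07 (SE, with adjusted p = 0.852 in edgeR), and 0.18 without elmo1-/- replicate 5 (edgeR adjusted p = 0.289).

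Fast troponin T, TNNT3 ENSDARG00000068457, ranged over 3890 to 5045 CPM in elmo1-/- larvae and 3771 to 4773 CPM in elmo1+/+ larvae. On the log2 scale it differed by 0.088 ± 0.079 (SE, with adjusted p = 0.959 in edgeR), and the groups overlapped over most of their range. The second troponin C gene of fast type, tnnc2.1, stood opposite to TNNC2, with 2.69, 3.28 and 4.63 CPM (lowest, median, highest) in elmo1-/- larvae and 3.67, 4.09 and 5.18 CPM in elmo1+/+ larvae. In it 5 of 6 elmo1-/- samples lay below all elmo1+/+ samples, at a log2 fold change of -0.33 ± 0.14 (SE, with adjusted p = 0.748 in edgeR). At 9.98 TPM in elmo1-/- larvae and 12.9 TPM in elmo1+/+ larvae it was far less abundant than TNNC2, at 5343 TPM and 5055 TPM.

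Slow troponins held 0 calls and 0 members with an unadjusted p under 0.05. Of them, 2 of 7 lay above 0 (median log2 fold change -0.040), against 51.7% of all genes. The most abundant was tnni4b.2, with 35.2, 44.8 and 47.3 CPM (lowest, median, highest) in elmo1-/- larvae and 40.1, 42.8 and 52.1 CPM in elmo1+/+ larvae, which overlapped. Its log2 fold change was 0.0027 ± 0.078 (SE) and turned negative on TPM. Slow troponin I gene tnni1c ranged over 13.5 to 20.7 CPM in elmo1-/- larvae and 14.7 to 22.2 CPM in elmo1+/+ larvae, at a log2 fold change of -0.13 ± 0.13 (SE). The other 5, TNNT1, TNNI1, tnni1d, tnni4a and tnni4b.1, lay between -0.14 and 0.34. TNNI1 was placed here by its shared orthologue name, which does not settle whether this copy is of slow type. The tnni4 genes, tnni4b.2 among them, were also placed here by name, which does not settle their fibre type.

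Troponins named for the heart, or for slow fibres and heart, held 0 calls among 7. Of these, 3 lay above 0, against 51.7% of all genes, with a median log2 fold change of -0.051. The class follows gene names, which do not settle where each copy is used. TNNC1, at 173 TPM in elmo1-/- larvae and 193 TPM in elmo1+/+ larvae, also stood for tnnc1b among the slow skeletal muscle markers. Heart markers summed to 60.2 to 79.8 TPM in elmo1-/- larvae and 58.3 to 77.5 TPM in elmo1+/+ larvae. TNNC1 had 95.7, 102.1 and 114.0 CPM (lowest, median, highest) in elmo1-/- larvae and 98.6, 111.1 and 127.5 CPM in elmo1+/+ larvae, overlapping, at a log2 fold change of -0.11 ± 0.07 (SE). The troponin T gene tnnt2d ranged over 74.2 to 109.1 CPM in elmo1-/- larvae and 74.1 to 102.4 CPM in elmo1+/+ larvae.

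The other troponin C gene of this class, tnnc1a, is the one whose loss stops the beating of the zebrafish heart ventricle. It had 3.74, 4.80 and 5.50 CPM (lowest, median, highest) in elmo1-/- larvae and 3.13, 3.58 and 4.01 CPM in elmo1+/+ larvae. All 6 elmo1-/- samples lay above the elmo1+/+ median and 4 above every elmo1+/+ sample. The log2 fold change was 0.37 ± 0.11 (SE, with adjusted p = 0.46 in edgeR), so it did not pass.

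Troponin classes follow gene names, so their shares need not match muscle types. As shares of all troponin TPM, fast genes made up 96.5% ± 0.27 in elmo1-/- larvae and 96.1% ± 0.30 in elmo1+/+ larvae. Slow genes made up 0.862% ± 0.087 in elmo1-/- larvae and 0.958% ± 0.046 in elmo1+/+ larvae, and the cardiac or slow and cardiac class 2.64% ± 0.19 against 2.96% ± 0.26 (SD, n = 6 each). The genotypes overlapped in all of these shares, and elmo1-/- replicate 5 lay apart from the other elmo1-/- samples, at 96.0% fast and 3.02% cardiac or slow and cardiac. Summed troponin I over summed troponin C was 0.787 ± 0.086 in elmo1-/- larvae and 0.787 ± 0.049 in elmo1+/+ larvae, and troponin T over troponin C was 1.26 ± 0.13 against 1.29 ± 0.11, with overlap in both.

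**Figure D4:**
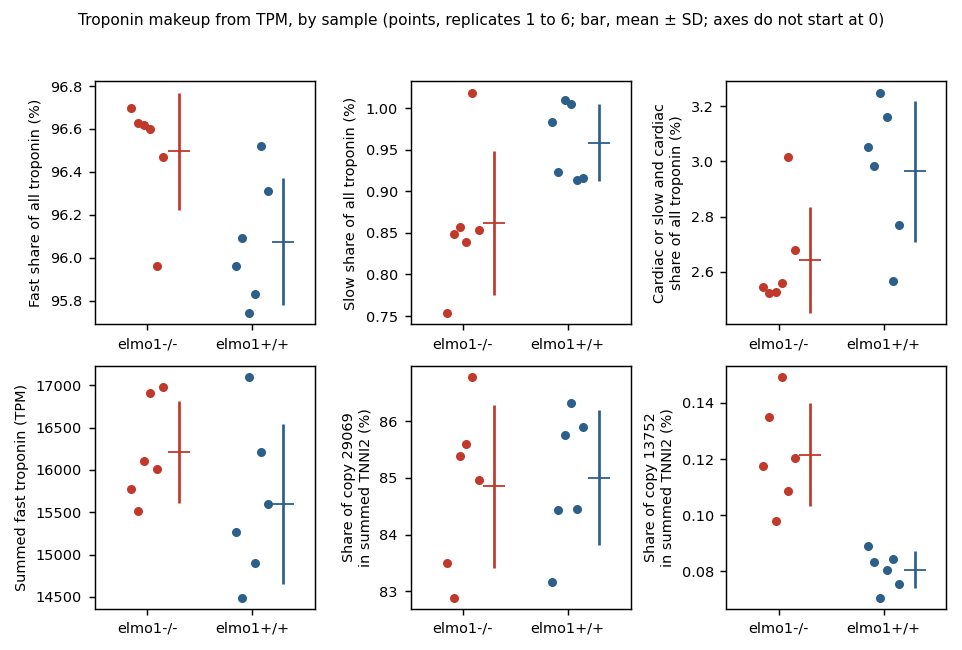
Troponin makeup computed from TPM, by sample, with elmo1-/- left of elmo1+/+; points are replicates 1 to 6, bars mean ± SD, and the axes do not start at 0. The panel for the share of TNNI2 ENSDARG00000013752, with means of 0.122% in elmo1-/- larvae and 0.0806% in elmo1+/+ larvae, is the one in which the genotypes are apart.

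Tropomyosins, which cover the myosin sites on actin at rest, held 0 calls. Of them, 4 of 5 lay below 0 (median log2 fold change -0.060), and 1 above, against 51.7% of all genes above 0. The most abundant, tpm3, had 263.8, 282.9 and 299.0 CPM (lowest, median, highest) in elmo1-/- larvae and 277.4, 282.9 and 337.8 CPM in elmo1+/+ larvae. Its highest sample was elmo1+/+ replicate 3, as in TPM2, which ranged over 182.1 to 221.2 CPM in elmo1-/- larvae and 194.6 to 242.7 CPM in elmo1+/+ larvae. TPM4 (ENSDARG00000019128), whose mammalian orthologue is also made outside muscle, had 25.1, 28.5 and 33.2 CPM in elmo1-/- larvae and 25.6, 35.2 and 42.2 CPM in elmo1+/+ larvae. All 6 elmo1-/- samples lay below the elmo1+/+ median, while elmo1+/+ replicate 5, at 25.6 CPM, lay among the elmo1-/- samples. On the log2 scale TPM4 differed by -0.28 ± 0.10 (SE, with adjusted p = 0.629 in edgeR).

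Sarcomeric actins were dominated by actc1b, which made up 90.3% ± 0.58 of their summed TPM in elmo1-/- larvae and 90.6% ± 0.62 in elmo1+/+ larvae. On the log2 scale actc1b differed by 0.058 ± 0.074 (SE, with adjusted p = 0.977 in edgeR). The skeletal actin gene ACTA1 ENSDARG00000055618 had 1471, 1629 and 2092 CPM (lowest, median, highest) in elmo1-/- larvae and 1402, 1538 and 1692 CPM in elmo1+/+ larvae, which overlapped, at a log2 fold change of 0.17 ± 0.09 (SE).

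Another actin identifier of cardiac type by name was ACTC1 ENSDARG00000057911. It had 43.6, 32.1, 33.6, 32.4, 27.9 and 44.2 CPM in elmo1-/- replicates 1 to 6, against 47.6, 47.6, 46.5, 54.5, 39.2 and 49.6 CPM in elmo1+/+ replicates 1 to 6. In this gene 4 elmo1-/- samples lay below all elmo1+/+ samples and all 6 below the elmo1+/+ median. The log2 fold change was -0.41 ± 0.11 (SE, with adjusted p = 0.296 in edgeR). It came nearest to a call in the lower direction without passing, and without each library in turn its adjusted p ran from 0.126 to 0.583. At 29.9 TPM in elmo1-/- larvae and 41.3 TPM in elmo1+/+ larvae it was a minor part of the actin transcript.

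Smooth muscle genes held 0 calls among 3. Smooth muscle actin, acta2, ranged over 141.6 to 175.2 CPM in elmo1-/- larvae and 136.7 to 222.2 CPM in elmo1+/+ larvae. The leiomodin gene LMOD1 ENSDARG00000056111, of smooth muscle in mammals, ranged over 4.99 to 7.13 CPM in elmo1-/- larvae and 4.53 to 5.74 CPM in elmo1+/+ larvae, at a log2 fold change of 0.15 ± 0.10 (SE).

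Genes that set the length of thin filaments gave small differences in both directions. NEB encodes nebulin, which lies along the skeletal thin filament, and had 627.8, 804.2 and 959.3 CPM (lowest, median, highest) in elmo1-/- larvae and 585.4, 706.6 and 719.5 CPM in elmo1+/+ larvae. Of the elmo1-/- samples, 4 lay above all elmo1+/+ samples, and replicates 1 and 2 lay among them. For NEB the log2 difference was 0.21 ± 0.09 (SE, with adjusted p = 0.748 in edgeR).

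The nebulin relative nebl (nebulette, of the heart Z-disc in mammals) stood the other way, at 1.47, 1.56 and 1.70 CPM (lowest, median, highest) in elmo1-/- larvae and 1.62, 1.94 and 2.66 CPM in elmo1+/+ larvae. Its elmo1-/- samples lay close together and 5 of 6 lay below all elmo1+/+ samples. The log2 fold change was -0.37 ± 0.14 (SE, with adjusted p = 0.689 in edgeR).

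Pointed end caps held 0 calls among 5. TMOD4, the tropomodulin of skeletal muscle that caps the slow-growing filament end, had 277.2, 305.5 and 331.2 CPM (lowest, median, highest) in elmo1-/- larvae and 270.7, 281.4 and 294.2 CPM in elmo1+/+ larvae. Of the elmo1-/- samples, 5 lay above all elmo1+/+ samples and replicate 5 lay among them, at a log2 fold change of 0.12 ± 0.05 (SE, with adjusted p = 0.743 in edgeR). The broadly expressed TMOD3 ranged over 6.03 to 8.04 CPM in elmo1-/- larvae and 7.16 to 8.09 CPM in elmo1+/+ larvae, and the leiomodins lmod3 and LMOD2 and the tropomodulin TMOD1 lay between -0.090 and 0.23.

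Titin, the spring that runs between Z-disc and M-band, was listed under 2 identifiers. TTN ENSDARG00000028213 ranged over 497.5 to 704.6 CPM in elmo1-/- larvae and 513.3 to 610.7 CPM in elmo1+/+ larvae, at a log2 fold change of 0.098 ± 0.086 (SE). TTN ENSDARG00000000563 ranged over 438.2 to 642.5 CPM in elmo1-/- larvae and 474.8 to 588.3 CPM in elmo1+/+ larvae. In both, 2 elmo1-/- samples lay below all elmo1+/+ samples and 3 or 4 above, so that elmo1-/- larvae were more widely spread on either side.

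Z-disc genes held 0 calls, and 7 of 8 lay above 0 with a median log2 fold change of 0.053, against 3 of 8 on log2(TPM + 1). Of all genes, 51.7% lay above 0 on counts and 32.9% on log2(TPM + 1). The most abundant was ldb3b, whose mammalian orthologue binds alpha-actinin, with 444.7, 533.5 and 565.9 CPM (lowest, median, highest) in elmo1-/- larvae and 449.0, 510.8 and 531.4 CPM in elmo1+/+ larvae. Its log2 fold change was 0.053 ± 0.066 (SE), and it was negative on TPM, at -0.011. The myozenin gene myoz1b, whose mammalian orthologue binds calcineurin, ranged over 286.2 to 363.1 CPM in elmo1-/- larvae and 277.5 to 333.0 CPM in elmo1+/+ larvae, at 0.091 ± 0.068 (SE) on the log2 scale. All 8 stayed within 0.15 of 0, and tcap, the titin cap, was the most variable of them, with a standard error of 0.25.

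Thick filament and M-band genes held 0 calls among 9. The myomesin genes, which cross-link thick filaments at the M-band, lay close to 0: MYOM2 ranged over 451.3 to 556.5 CPM in elmo1-/- larvae and 482.8 to 576.1 CPM in elmo1+/+ larvae, and MYOM1 ENSDARG00000061249 over 281.6 to 328.5 CPM against 271.1 to 338.9 CPM. Their log2 fold changes, 0.016 and 0.019, turned negative on TPM.

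MYBPC2, the fast myosin binding protein C, had 19.2, 28.1 and 33.1 CPM (lowest, median, highest) in elmo1-/- larvae and 11.2, 21.5 and 25.0 CPM in elmo1+/+ larvae. Here 5 elmo1-/- samples lay above all elmo1+/+ samples, and the log2 fold change was 0.43 ± 0.17 (SE, with adjusted p = 0.74 in edgeR). The second copy of fast type, mybpc2b, gave -0.031 ± 0.094 (SE), and the other members of this class, including the cardiac MYBPC3, lay between -0.15 and 0.22. The kinase gene TNNI3K was at a low level, 0.395 ± 0.164 TPM in elmo1-/- larvae and 0.498 ± 0.187 TPM in elmo1+/+ larvae, and its log2 fold change was -0.29 ± 0.28 (SE), between -0.48 and -0.093 with a library left out.

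After the genotype means were removed, some of the abundant members of fast muscle varied together over the 12 samples and others did not. TNNC2 had a Pearson's r of 0.89 with actc1b, 0.83 with ldb3b, 0.83 with TNNI2 ENSDARG00000029995 and 0.81 with TMOD4 (log2 CPM deviations). Its r was 0.15 with NEB and -0.45 with TNNT3 ENSDARG00000030270, also members of at least 100 TPM. Over the 24 members of at least 100 TPM the mean r was 0.33 (276 pairs, -0.67 to 0.91). Over all 64 members it was 0.073 (2016 pairs), against 0.00020 over all genes. After TMM scaling the median deviation of all genes (genotype means kept) lay between -0.00099 and 0.0079 in every sample. Such centring by itself holds the mean r over all genes small. The mean r was not computed over all genes of at least 100 TPM, so 0.33 has no counterpart at that level. These values are a description, since the points share libraries, depth and TMM factors, and elmo1-/- replicate 5 was the lowest sample in 8 of the 24. The median deviation of sarcomeric actins in that sample was -0.32 on the log2 scale, and in the other 11 samples between -0.068 and 0.20.

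Fast troponin genes themselves did not vary as one group. Their mean r was -0.0061 over 45 pairs, with a range of -0.77 to 0.88. The TNNI2 copies ENSDARG00000035958 and ENSDARG00000045592 varied together (r = 0.88) and opposite to the main copy ENSDARG00000029069 (-0.66 and -0.77), and TNNI2 ENSDARG00000005841 varied opposite to TNNC2 (-0.70). The copy that rose had r of 0.46 with the main copy and 0.36 with TNNC2. The 2 titin identifiers had the highest r of all member pairs, 0.98.

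**Figure D5:**
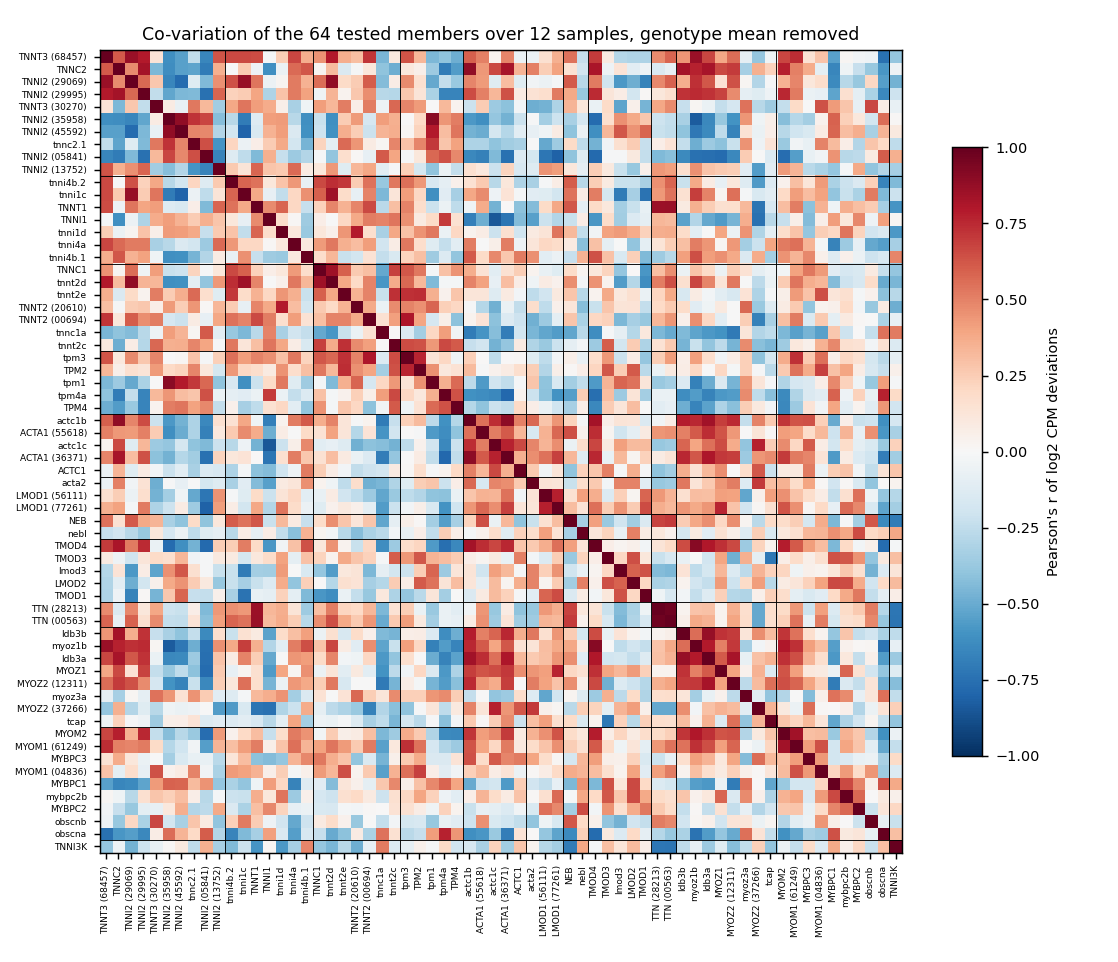
Pearson's r between the log2 CPM deviations of each pair of the 64 tested members over 12 samples, after removal of the genotype means, with lines between role classes; red is positive and blue negative. TNNC2 is red against actc1b (0.89) and most Z-disc genes but blue against myoz3a (-0.33). Some TNNI2 copies are blue against the main copy (down to -0.77).

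Genes of the muscle pathway that are no members were taken from fixed lists. Among all genes, 0.124% were called lower and 0.11% higher. Myosin heavy chains of fast fibres, the motors that pull on thin filaments, held the calls: 2 of 7 fell and 0 rose. Of these, myhc4 averaged 11.8 ± 4.45 CPM in elmo1-/- larvae and 29.4 ± 8.30 CPM in elmo1+/+ larvae (SD, 6 samples each), a log2 difference of -1.32 ± 0.22 (SE, with adjusted p = 0.0183 in edgeR). The gene myha averaged 6.36 ± 1.63 CPM in elmo1-/- larvae and 13.4 ± 2.97 CPM in elmo1+/+ larvae, a log2 difference of -1.08 ± 0.17 (SE, with adjusted p = 0.00922 in edgeR). In neither gene did the genotypes overlap. Both were minor copies: myhc4 averaged 2.5 TPM in elmo1-/- larvae and 6.3 TPM in elmo1+/+ larvae, and myha 1.3 TPM and 2.9 TPM. The most abundant, myhz1.1, averaged 2864 TPM in elmo1-/- larvae and 2820 TPM in elmo1+/+ larvae. The abundant myhz1.1, myhz2, myhz1.2 and myhz1.3 had log2 fold changes of 0.075, -0.076, 0.24 and -0.11 and were not called. Lists of myosin light chains (11 genes tested), slow muscle fibre (7), cardiac muscle (12), smooth muscle (10), excitation and calcium handling (23), muscle transcription factors (18), sarcomere assembly and chaperones (15), Z-disc and costamere (26), muscle creatine kinase and energy (13) and myoblast fusion (12) held 0 calls in either direction.

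The most abundant genes of these lists differed little between genotypes. The parvalbumin gene pvalb2, a calcium buffer of fast fibres, had a log2 fold change of 0.11 ± 0.09 (SE), and ckmb, a muscle creatine kinase, 0.13 ± 0.08. All 13 energy genes lay above 0, at 0.011 to 0.13 with a median of 0.089, against 51.7% of all genes. None had an unadjusted p under 0.05. All 13 stayed above 0 without elmo1-/- replicate 5, an alternative chosen after seeing the data. The direction was not shared on mean TPM. There mb, LDHA, the PYGM copies, ALDOA ENSDARG00000034470 and CKMT2 ENSDARG00000069615 lay lower in elmo1-/- larvae, and the other energy genes higher. For mb the values were 61.7 TPM in elmo1-/- larvae and 64.8 TPM in elmo1+/+ larvae. For ckmb the values were 4179 TPM and 3955 TPM. On log2(TPM + 1) the median of all genes was itself -0.038. Of 12 myoblast fusion genes, 5 lay above 0 with a median of -0.023, and none had an unadjusted p under 0.05. For myosin light chains 10 of 14 listed symbols had a match, and the 11 genes tested took in the kinase gene MYLK3. Of these 11, 2 (18.2%) had an unadjusted p under 0.05 in edgeR, both lower in elmo1-/- larvae, against 6.16% of all genes.

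By RefSeq gene names, elmo1 lies on chromosome 19, and 63 members matched a RefSeq name, 34 by the same symbol. One of them, tpm3, has a name on that chromosome, and its log2 fold change was -0.051 ± 0.056 (SE). RefSeq lists 6 tnni2 genes on chromosomes 7 and 25, and the files do not say which of them is ENSDARG00000013752.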

How the data were processed

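Total RNA of pooled whole larvae was purified on RNeasy columns and sequenced on a BGISEQ-500. Per the labels and the submitters' processing notes, which name Trim Galore 0.6.4, kallisto 0.4.6 and GRCz11, the authors deposited an expected count and a TPM value per Ensembl gene and sample; TPM sums to 1000000 per sample. Of 32520 identifiers, 29201 (89.8%) had a symbol. In each sample 38.0% to 39.6% of the expected counts were not whole, although whole counts had been assumed, and they were rounded. Division of reads between copies and the length assigned per sample can change both units.

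Genotypes were taken from sample titles. Genes passing filterByExpr (minimum count 10) were compared with edgeR 4.0.16 (R 4.3.3; TMM, quasi-likelihood test, genotype as the term, 12 samples, Benjamini-Hochberg over all genes, threshold 0.05), and SEs were derived from the F statistic. CPM used TMM-scaled library sizes (prior count 2 for log2 CPM). At these depths 3 counts equal 0.138 to 0.144 CPM. Alternatives were RLE and upper-quartile factors, DESeq2 1.42.0, limma 3.58.1 (voom with sample weights, and log2 TPM with pseudocounts of 1 and 0.1), other count filters, a replicate term, a length offset and leaving out each library.

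Members, roles and lists were chosen with earlier results of these data known. Members named with values had an adjusted or unadjusted p under 0.05, no overlap, or were among the 2 highest by TPM in a role class; any others were named after their values were seen. Sequences were not used here.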

Additional observations from a re-analysis of the deposited data

Results flagged for a closer look

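In 136 groups of 6 samples (members and some of the shares, by genotype), 11 samples stood apart by Dixon's test of the gap to the nearest sample over the range. For independent groups chance gives about 1 in 20, or 6.8. These groups are not independent, since they come from the same libraries and the troponin shares are parts of the same total. The counts are therefore a description. Of the 11, 4 were elmo1-/- replicate 5 and 5 were elmo1+/+ replicate 3.

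In elmo1-/- replicate 5, TNNC2 was at 3810 CPM (others 4570 to 4850), MYOM2 at 451.0 CPM (others 523.0 to 557.0), the fast share of troponin TPM at 96.0% (others 96.5% to 96.7%) and the cardiac or slow and cardiac share at 3.02% (others 2.52% to 2.68%). In elmo1-/- replicate 1, tnni4b.2 was at 35.2 CPM (others 44.1 to 47.3).

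In elmo1+/+ replicate 3, tnni4a was at 5.87 CPM (others 4.03 to 4.67), tnni4b.2 at 52.1 CPM (others 40.1 to 44.0), TPM2 at 243.0 CPM (others 195.0 to 212.0), tpm3 at 338.0 CPM (others 277.0 to 296.0) and the share of all members in TPM at 5.08% (others 4.61% to 4.72%). In elmo1+/+ replicate 5, TNNI2 ENSDARG00000005841 was at 12.7 CPM (others 14.0 to 14.7).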

How the results depend on the processing

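For the 29 named members, 276 of 290 values under 10 other settings and 328 of 348 values with a library left out kept their direction and their side of the threshold. The count of changed genes over all genes was 51, against 97 with DESeq2 and 34 to 67 with a library left out. Members changed, and members higher, numbered 1, against 0 to 1 with a library left out. Members lower stayed at 0, members with an unadjusted p under 0.05 ran from 7 to 16, and the median log2 fold change of members from 0.0019 to 0.048 (without elmo1+/+ replicate 3), and it was -0.032 on log2(TPM + 1) and -0.033 on log2(TPM + 0.1), where the medians of all genes were -0.038 and -0.045. Directions near 0 turned negative in 5 members. On log2(TPM + 1) and log2(TPM + 0.1), these were ldb3b (-0.0105 and -0.0106), tnni4b.2 (-0.0462 and -0.0468), MYOM1 ENSDARG00000061249 (-0.00169 in both), MYOM2 (-0.0588 and -0.0591) and TTN ENSDARG00000000563 (-0.00167 and -0.00318). With upper-quartile factors tnni4b.2 was at -0.000593, with voom at -0.00611, and with the length offset MYOM2 was at -0.0142. With a library left out, tnni4b.2 ran from -0.026 to 0.058, MYOM1 ENSDARG00000061249 from -0.013 to 0.058 and MYOM2 from -0.0085 to 0.055. On CPM in place of TPM, the slow share of troponin in elmo1+/+ larvae was 0.868%, since CPM does not divide by length. The cause of the other changes was not tested. Standard errors of members ran from 0.051 to 0.28.

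Same-numbered samples of the genotypes are not said to be pairs, and the correlation of their deviations was over 0.1 in 4 of 6 pairs (-0.033 to 0.30). Pairing was to be taken only where the labels give it or every pair is over 0.1, which was not met, and 3 of 6 elmo1-/- samples and 4 of 6 elmo1+/+ samples correlated best with their own number. With a replicate block, 60 genes were called in place of 51, and 0 members in place of 1. TNNI2 ENSDARG00000013752 was then 0.685 higher on the log2 scale (adjusted p = 0.0593 in edgeR).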

Other observations

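The effective length that the quantification gave a gene (count over TPM, up to a constant per sample) varied most among members in TNNI1 ENSDARG00000052708. This gene was named after its values were seen and counted with the slow troponins by its shared name. The name does not tell which of the 4 RefSeq tnni1 genes it is. For this gene the coefficient of variation of the effective length over the 12 samples was 14.3%. Its count-based log2 fold change was -0.0043, whereas TPM averaged 10.3 ± 1.95 in elmo1-/- larvae and 12.3 ± 2.22 in elmo1+/+ larvae (SD, n = 6 each), and both its TPM and its effective length overlapped between genotypes. In none of the 64 tested members were the effective lengths of the genotypes free of overlap.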
